A study of Mus musculus with 4 samples.

Results

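The ADAM genes were taken from the deposited table as every gene whose symbol is Adam followed by a number and at most 1 letter, which gave 32 of 25965 listed genes. ADAM proteins ("a disintegrin and metalloprotease") are membrane-anchored proteins with a prodomain, a metalloprotease domain and a disintegrin domain. Expression was measured by Smart-seq2 RNA sequencing in round spermatids, the haploid germ cells formed by meiosis, sorted from testes of ICR mice. The samples were 2 libraries of genotype Wfdc15a+/- (the heterozygous controls) and 2 labelled Wfdc15a-/- (knockout). Every library thus came from mice with at least 1 altered Wfdc15a allele. Being haploid, a single spermatid carries only 1 of the alleles of its mouse. The study's +/+ controls were not analysed here, and the labels give no age. Wfdc15a encodes a small protein with the WAP fold of several protease inhibitors. No label ties a replicate to an animal of its own, so the p-values reflect only the spread among these 4 libraries, which may be technical. The libraries held 5774112 to 33853604 reads, with heterozygous library 1 the shallowest. The 6 round spermatid markers (Acrv1, Spaca1, Izumo1, Spaca7, Acr, Zpbp) were between 156 and 849 RPM in each library. RPM, the deposited unit, scales the reads of a gene to the total of its library.

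Some ADAM proteins are proteases that release the outer parts of other membrane proteins. These include Adam10, which acts on Notch receptors, and Adam17, which releases tumour necrosis factor. Other members, many of them made in the testis, have lost the residues that bind the catalytic zinc and are known as adhesion or chaperoned surface proteins. In spermatids, Adam2 pairs with Adam1a in the endoplasmic reticulum and with Adam1b at the cell surface (fertilin). Adam3 is the sperm protein whose loss stops mouse sperm from passing from the uterus into the oviduct.

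For the comparison, 19 members were listed as germ cell genes: Adam1a, Adam1b, Adam2, Adam3, Adam4, Adam5, Adam6a, Adam6b, Adam18, Adam21, Adam24, Adam25, Adam26a, Adam26b, Adam29, Adam30, Adam32, Adam34 and Adam39. The broadly expressed members were Adam9, Adam10 and Adam17, and the other 10 were grouped as other somatic members. Adam20, another germ cell gene, is listed under the older symbol 4930529F22Rik and was not counted as a member. It was at 77.9 and 67.9 RPM in the heterozygous and 59.3 and 82.4 RPM in the knockout libraries. Adam34l, listed under the older symbol Gm5346, was not counted or placed in a class either. Its values were 9.35 and 5.08 RPM against 7.94 and 7.01 RPM. The ranges and ratios below leave out both genes.

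The coding sequence of the zinc-binding site is shown because the members that keep it and those that lack it are described apart. Of the 19 germ cell members, 10 held the zinc-binding motif of metalloproteases in their GENCODE M21 coding sequence and 9 did not, while Adam9, Adam10 and Adam17 all held it. The 33 bases below run 5′ to 3′ on the coding strand. Capitals mark the codons, of the 5 that the motif fixes, that are kept. For members without the motif the stretch is the one aligned to the site of the most similar member that has it.
Adam10: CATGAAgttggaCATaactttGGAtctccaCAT
Adam17: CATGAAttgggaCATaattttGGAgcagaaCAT
Adam9: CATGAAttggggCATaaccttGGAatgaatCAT
Adam24: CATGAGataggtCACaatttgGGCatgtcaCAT
Adam1a and Adam1b: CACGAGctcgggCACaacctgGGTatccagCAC
Adam29: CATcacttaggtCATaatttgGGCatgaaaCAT
Adam4: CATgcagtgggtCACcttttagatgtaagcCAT
Adam6a: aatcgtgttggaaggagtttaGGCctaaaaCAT
Adam5: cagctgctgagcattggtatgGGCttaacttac
Adam3: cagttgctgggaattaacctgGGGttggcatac
Adam2: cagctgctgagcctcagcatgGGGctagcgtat
On GRCm38 (mm10), the build of all coordinates given here, the Adam9 site lies at chr8:24990326-24990358 and the aligned stretch of Adam5 at chr8:24806449-24806481, each in coding exon 11 on the minus strand. The site of Adam24 lies at chr8:40680518-40680550 on the plus strand, within its 1 coding exon. Adam5, Adam3, Adam2, Adam32 and Adam18 each kept 1 of the 5 fixed codons, Adam6b 1, Adam6a 2, Adam4 3 and Adam29 4. A member without a zinc site is here one that does not hold all 5. Adam4 and Adam29 kept the 3 histidine codons (CAT or CAC) of the motif, so this label does not mean that they lost zinc binding.

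Round spermatids held high levels of a few ADAM transcripts. Adam5 was at 2129 and 1855 RPM in the heterozygous and at 1936 and 2111 RPM in the knockout libraries. Adam3 followed at 1642 and 1544 RPM against 1418 and 1780.3 RPM. Adam32 was at 1299.6 and 887 RPM against 871 and 1091 RPM. The values for Adam2 (fertilin beta) were 997 and 873 RPM against 843 and 1052 RPM. The groups overlapped for each of these 4 genes. Together the 4 genes gave 77.3% to 82.1% of all ADAM reads in a library. The germ cell members as a whole took 0.642% to 0.749% of each library.

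Adam18 came next, at 294 and 258 RPM in the heterozygous and at 294 and 303 RPM in the knockout libraries. The fertilin alpha genes lie next to each other on chromosome 5. Adam1a was at 118 and 196 RPM against 185 and 161 RPM. Adam1b was at 113 and 77.8 RPM against 78.9 and 86.2 RPM. Heterozygous library 1 was the lowest for Adam1a and the highest for Adam1b. Of the 50-base stretches in the coding sequence of Adam1a, 45.9% also occur in that of Adam1b, so reads of the pair may have been misassigned. An exon of the annotated gene Gm42878 also overlaps Adam1a.

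The testase genes, named as testis ADAM proteases, sit in 2 groups on chromosome 8. In the first group, Adam24 was at 139 and 151 RPM against 169 and 163 RPM. Adam25 was at 69.3 and 79.4 RPM against 79.4 and 100.4 RPM, with Adam39 at 63.0 and 71.1 RPM against 68.3 and 77.5 RPM. The knockout libraries lay above both heterozygous ones for Adam24. For the other two the groups overlapped, and Adam25 and Adam39 share 95.6% of aligned coding bases, so their reads are uncertain. In the second group, Adam26a was at 68.4 and 59.6 RPM against 50.1 and 70.4 RPM. Adam26b was at 33.6 and 21.3 RPM against 19.5 and 20.1 RPM, with Adam34 at 38.8 and 37.2 RPM against 44.4 and 47.4 RPM. Adam26b was below both heterozygous libraries in the knockout libraries and Adam34 above both, while Adam26a overlapped. Adam26a shares 93.9% of aligned coding bases with Adam26b and 87.5% with Adam34, so these levels are uncertain too.

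The other germ cell genes with a zinc site are Adam30 and Adam21. Adam30 on chromosome 3 was at 78.8 and 72.6 RPM against 78.1 and 80.1 RPM. Adam21 on chromosome 12 was at 52.1 and 74.1 RPM against 52.4 and 64.3 RPM. The groups overlapped for both.

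**Figure D1:**
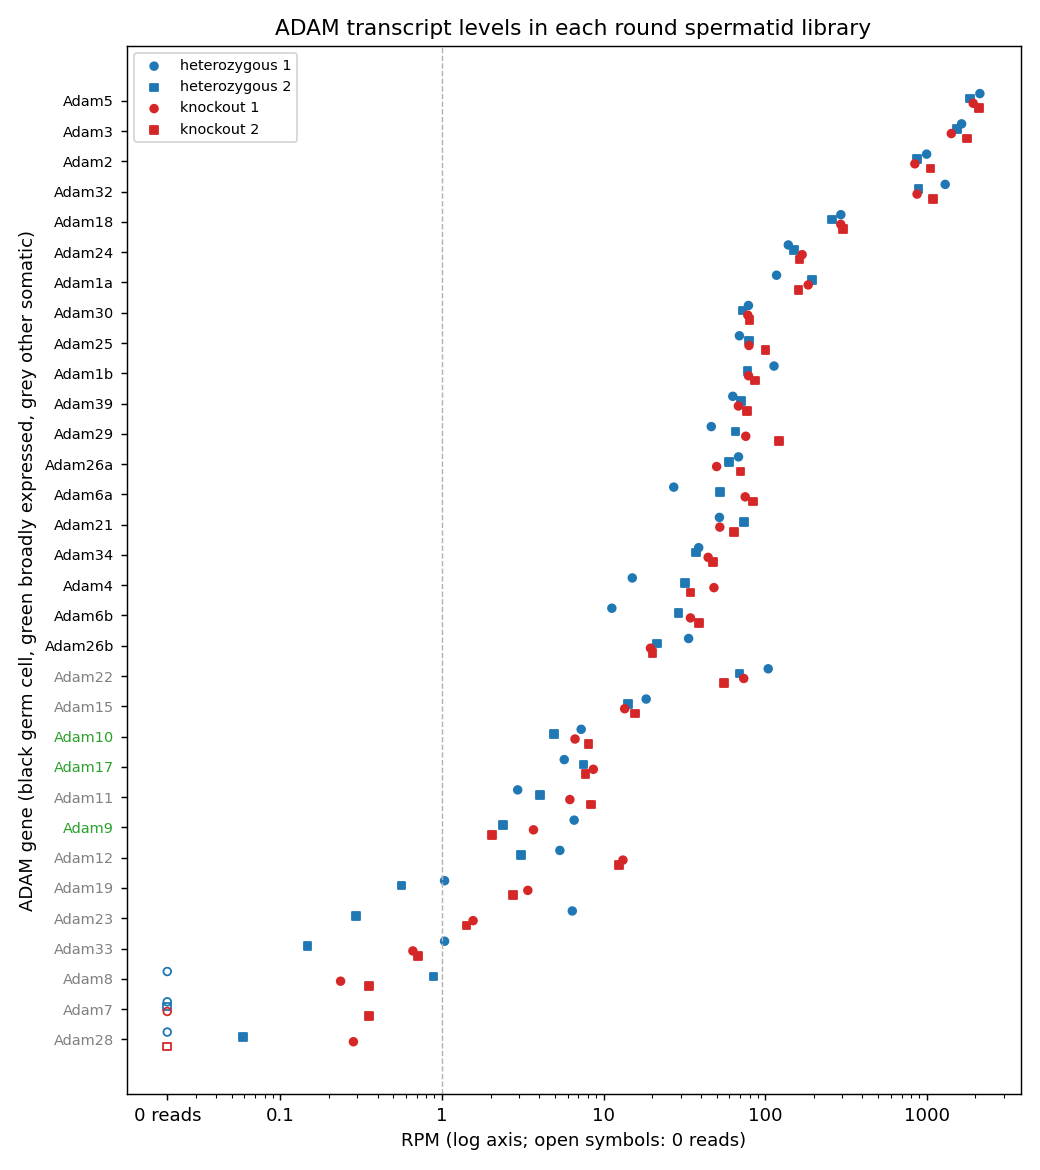
RPM (log axis) of the 32 ADAM genes in each of the 4 libraries, with genes ordered by level per kilobase of exon and 0 reads drawn as open symbols at the left. Adam5 lies at 1855 to 2129 RPM, and the broadly expressed Adam9, Adam10 and Adam17 (green) lie under 10 RPM in each library.

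Levels of different genes were compared as RPM per kilobase of exon, since RPM is not adjusted for gene length. On this scale the germ cell members ran from 641 ± 42.9 for Adam5 to 9.95 ± 2.82 for Adam26b (mean ± SD over all 4 libraries), a 64.5-fold range. Adam5 and Adam3 (543 ± 52.1) had overlapping ranges over the libraries, as did Adam2 (350 ± 37.0) and Adam32 (347 ± 67.4). The ranges were apart between Adam3 and Adam2, between Adam32 and Adam18 (122 ± 8.36), between Adam18 and Adam24 (54.2 ± 4.69), and between Adam1a (52.8 ± 11.1) and Adam30 (32.8 ± 1.41). For the other 14 of 18 neighbours in the order of germ cell members the ranges overlapped. The order was much the same in each library, with Spearman's rho across the 19 germ cell genes of 0.865 to 0.967 for the 6 pairs of libraries. All libraries share the same gene lengths, and the genes are not independent replicates.

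The broadly expressed members were low. Adam10 was at 7.27 and 4.93 RPM in the heterozygous and at 6.66 and 8.08 RPM in the knockout libraries. Adam17 was at 5.72 and 7.53 RPM against 8.65 and 7.72 RPM. Adam9 was at 6.58 and 2.39 RPM against 3.69 and 2.04 RPM. The groups overlapped for Adam9 and Adam10, and the knockout libraries were the higher for Adam17. Exons of Adam17 overlap those of Iah1 on the other strand, and the protocol keeps no strand, so reads of the pair cannot be told apart there. Per kilobase the means were 1.37 ± 0.272 for Adam10, 1.03 ± 0.172 for Adam17 and 0.894 ± 0.502 for Adam9, and their ranges overlapped.

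All 19 germ cell members lay above Adam9, Adam10 and Adam17 per kilobase in each of the 4 libraries. The lowest germ cell member was 2.84-fold above the highest broadly expressed one in heterozygous library 1 (Adam6b over Adam9), and 5.14-fold to 8.53-fold in the other libraries (Adam26b over Adam10 or Adam17). Summed over genes in RPM, the germ cell members exceeded the broadly expressed ones 369.8-fold and 433-fold in the heterozygous and 338-fold and 419.8-fold in the knockout libraries. On the log2 scale this ratio was 8.53 and 8.76 against 8.40 and 8.71. The difference of -0.09 was less than the spread within groups, and 2 libraries against 2 cannot reach an exact p under 0.05.

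**Figure D2:**
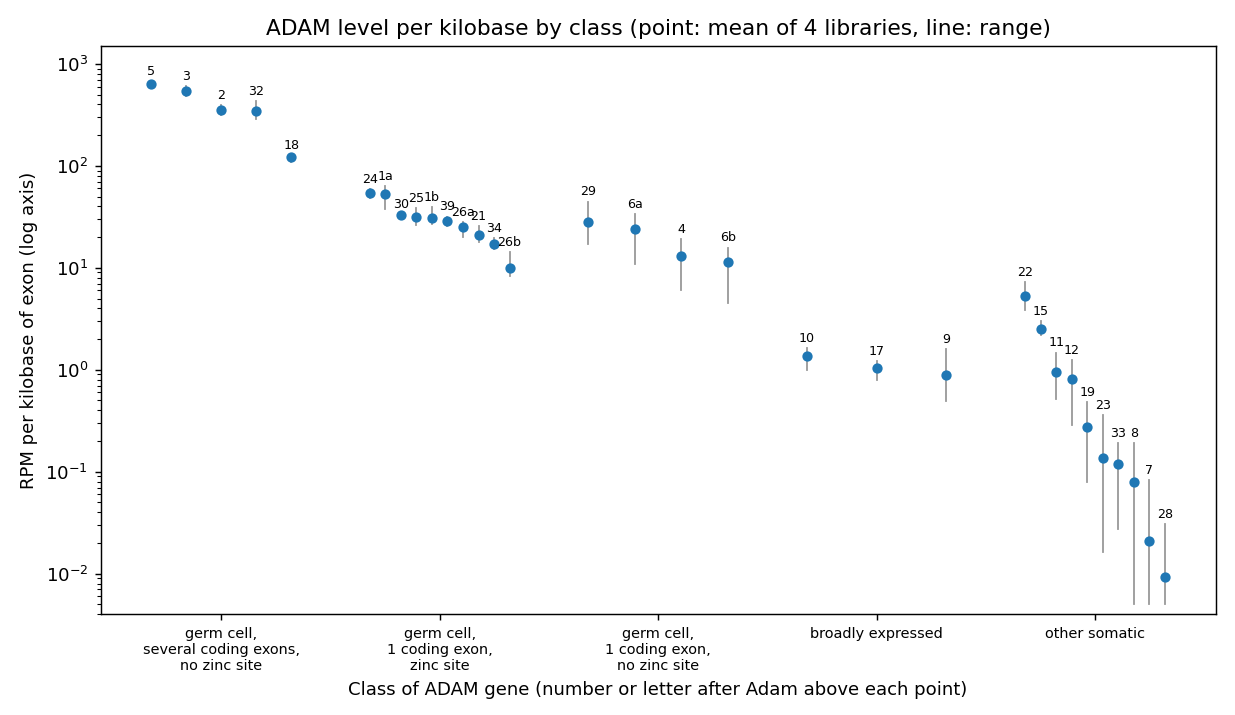
Mean RPM per kilobase of exon (log axis) over the 4 libraries, with the range as a line (ranges that reach 0 stop at the axis), for ADAM genes grouped by class, number of coding exons and zinc site. The 5 germ cell genes with several coding exons lie at 122 to 641, above the 14 with 1 coding exon, and the broadly expressed genes lie at 0.894 to 1.37.

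Gene structure and level went together among the germ cell members. The 5 genes with 19 to 22 coding exons were Adam5, Adam3, Adam2, Adam32 and Adam18. These 5 held the highest levels, at 122 to 641 RPM per kilobase, and none kept the zinc site. The other 14 had their whole coding sequence in 1 exon. Of these, the 10 with the whole zinc-binding motif were at 9.95 to 54.2 RPM per kilobase. The 4 without the whole motif, Adam4, Adam6a, Adam6b and Adam29, were at 11.5 to 28.4 RPM per kilobase. Members without the whole motif thus held 87.0% to 89.3% of the germ cell ADAM reads of a library. Each of the 13 broadly expressed and other somatic members had at least 16 coding exons. These groupings were noticed after the values were seen and were not tested.

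Direct neighbours on chromosome 8 belong to both classes. There Adam18 (24602246 to 24674755), Adam3 (24677225 to 24725852), Adam5 (24727093 to 24824369), Adam32 (24836140 to 24948804) and Adam9 (24949611 to 25016922) follow each other on the minus strand with no other listed gene between them. Only 806 bases separate Adam32 from Adam9. Per kilobase, Adam32 was 271-fold and 509-fold above Adam9 in the heterozygous and 324-fold and 734-fold above it in the knockout libraries. Adam9 rested on 23 to 81 reads per library and its level varied more over the libraries than that of Adam32.

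**Figure D3:**
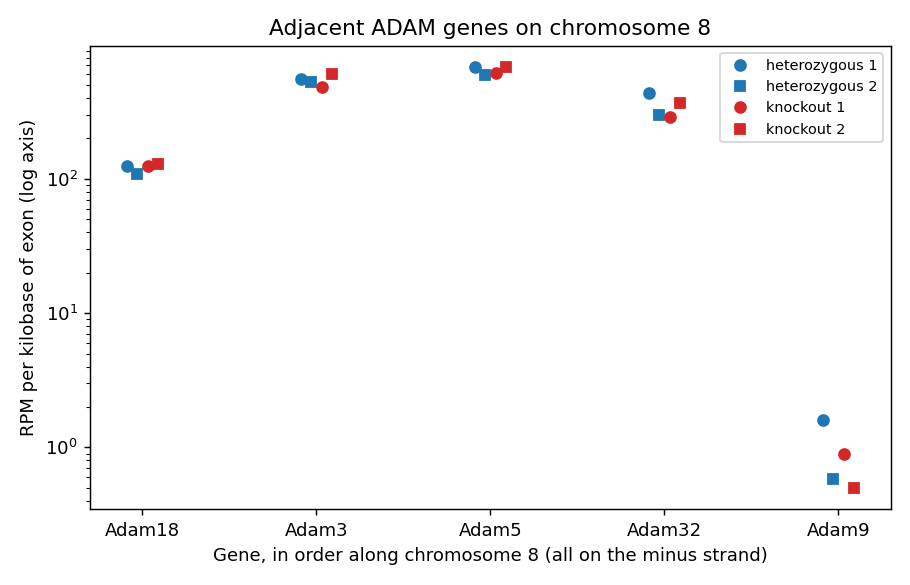
RPM per kilobase of exon (log axis) in each library for the 5 adjacent ADAM genes of chromosome 8, in chromosome order. Adam18, Adam3, Adam5 and Adam32 lie above 100 in each library, and Adam9 lies at 0.497 to 1.60.

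The promoters differed in base composition. RefSeq start sites (build GRCm38.p6) were matched by symbol for 16 members, among them 9 germ cell genes and Adam10 and Adam17. Each of the 9 has 1 coding exon, so the 5 germ cell genes with the highest levels are not covered. In windows of 300 bases (250 before the start and 50 after), the germ cell promoters had 35.3% to 51.0% G or C, and those of Adam10 and Adam17 had 73.3% and 70.0%. The ratio of observed to expected CG dinucleotides was 0 to 0.36 for the germ cell promoters and 0.84 and 0.82 for Adam10 and Adam17. The 100 bases before the start overlap an annotated exon for Adam1a, Adam1b and Adam6b. Adam1b and Adam6b had the most G or C of the germ cell promoters (51.0% and 48.3%), and Adam1a had the highest ratio (0.36). The other germ cell promoters had 35.3% to 43.0% G or C and ratios of 0 to 0.11. Among these, the ends of the Adam26b and Adam34 windows matched no annotated transcript of the gene. The Adam34 window (43665511 to 43665810) lies well inside its listed span (43650435 to 43699487), so it may not be the promoter. The 5 other somatic genes matched had 7 windows, with 49.3% to 70.0% G or C and ratios of 0.21 to 0.88, between and beyond these classes. Both lower limits came from extra start sites of Adam19, whose window nearest its listed start had 60.3% and 0.41. The median of 32851 promoters was 52.7% G or C and a ratio of 0.38. The 100 bases before the start are shown for 2 promoters of each class, with CG in capitals.
Adam6a: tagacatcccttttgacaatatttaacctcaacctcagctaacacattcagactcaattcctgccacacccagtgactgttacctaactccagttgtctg
Adam29: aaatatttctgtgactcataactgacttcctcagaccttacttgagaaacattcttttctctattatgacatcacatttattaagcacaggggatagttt
Adam10: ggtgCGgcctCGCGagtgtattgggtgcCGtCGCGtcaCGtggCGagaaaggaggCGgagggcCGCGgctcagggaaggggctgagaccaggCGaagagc
Adam17: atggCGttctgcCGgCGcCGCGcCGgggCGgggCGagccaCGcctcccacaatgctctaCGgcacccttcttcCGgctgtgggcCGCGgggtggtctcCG
These stretches lie at chr12:113543808-113543907 (plus strand), chr8:55906965-55907064 (minus), chr9:70678882-70678981 (plus) and chr12:21373633-21373732 (minus), and hold 0, 0, 12 and 14 CG. The 9 germ cell promoters held 0 to 3 CG in this stretch. The cyclic AMP response element TGACGTCA, searched on both strands, was in 0 of the member promoters and in 1.79% of all promoters. Its core TGACG was in 1 member promoter, that of Adam10, and in 20.8% of all promoters. A match or its absence describes these windows only.

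The other somatic members ranged widely. Adam22, known from the brain as a receptor without protease activity, was at 104 and 69.3 RPM against 73.7 and 55.8 RPM, the level of several germ cell members in RPM. Spread over its long exons this was 5.28 ± 1.43 RPM per kilobase, below each germ cell mean and above those of Adam9, Adam10 and Adam17. Adam15 was at 18.4 and 14.2 RPM against 13.5 and 15.7 RPM. The groups overlapped for Adam22 and Adam15. Exons of Adam15 overlap the antisense gene 4731419I09Rik, from which its reads cannot be told apart there. Adam23, a relative of Adam22 in neurons, was at 6.41 RPM in heterozygous library 1 and at 0.295 to 1.56 RPM in the other libraries, so its mean rested on 1 library. Adam33, Adam8, Adam7 and Adam28 did not reach 1 RPM in 2 libraries and were not tested. Adam33 was at 0.148 to 1.04 RPM. Adam7, known from the epididymis, had 0 reads in 3 libraries and 4 reads in knockout library 2. Adam28 had 0, 2, 6 and 0 reads and Adam8, a gene of white blood cells, 0, 30, 5 and 4 reads. A count of 0 allows up to 3 reads, which is 0.520 RPM in heterozygous library 1 and 0.0886 RPM in heterozygous library 2, for counting error only.

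The genotype comparison asked whether ADAM transcripts differ in mice with both Wfdc15a alleles altered, since the series' title names protease homeostasis. Wfdc15a itself was still present in the libraries labelled knockout, at 82.6 and 59.5 RPM beside 121 and 85.2 RPM (log2 difference -0.53, SE 0.29, limma adjusted p = 0.647), so genotypes are given as labelled. The difference was -0.28 without heterozygous library 1 and -0.30 without knockout library 2. Of the 32 members, 28 reached 1 RPM in at least 2 libraries and were tested: the 19 germ cell genes, the 3 broadly expressed ones and 6 others. With limma, 0 of the 28 passed an adjusted p of 0.05, as did 0 of all 15888 genes tested (0.00%). At an unadjusted p under 0.05 there were 6 members higher (Adam12, Adam6a, Adam29, Adam19, Adam6b and Adam4) and 0 lower, where the shares over all tested genes were 6.21% higher and 1.87% lower. Voom weights on reads recovered from the table also gave 0 passing members.

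The knockout libraries lay above both heterozygous libraries for 10 of the 28 members and below both for 1, beside 23.5% and 15.0% of all tested genes. By class, this was 6 above and 1 below of 19 germ cell members, 1 above of the 3 broadly expressed, and 3 above of 6 others. The median log2 difference was 0.11 over the germ cell members, 0.29 over Adam9, Adam10 and Adam17, and 0.07 over all tested genes. The median over Adam9, Adam10 and Adam17 was 0.20 without heterozygous library 1, 0.012 without heterozygous library 2, 0.15 without knockout library 2 and 0.099 with quantile normalization. The 3 genes with the highest levels per kilobase were nearest to 0. The log2 difference was 0.02 for Adam5 (95% interval -0.35 to 0.40) and -0.00 for Adam3 (95% interval -0.41 to 0.40). It was 0.01 for Adam2 (95% interval -0.41 to 0.44). For Adam10 it was 0.29 (SE 0.46), for Adam17 0.32 (SE 0.44) and for Adam9 -0.53 (SE 0.68), and the value for Adam9 was 0.20 without heterozygous library 1 and -1.26 without heterozygous library 2. Leaving out 1 library at a time gave 10 to 18 members above and 3 to 8 below, with the most above (18) without knockout library 1 and the most below (8) without heterozygous library 2. With only 1 library in a group fewer genes overlap, so the shares of 23.5% and 15.0% do not apply to these counts.

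**Figure D4:**
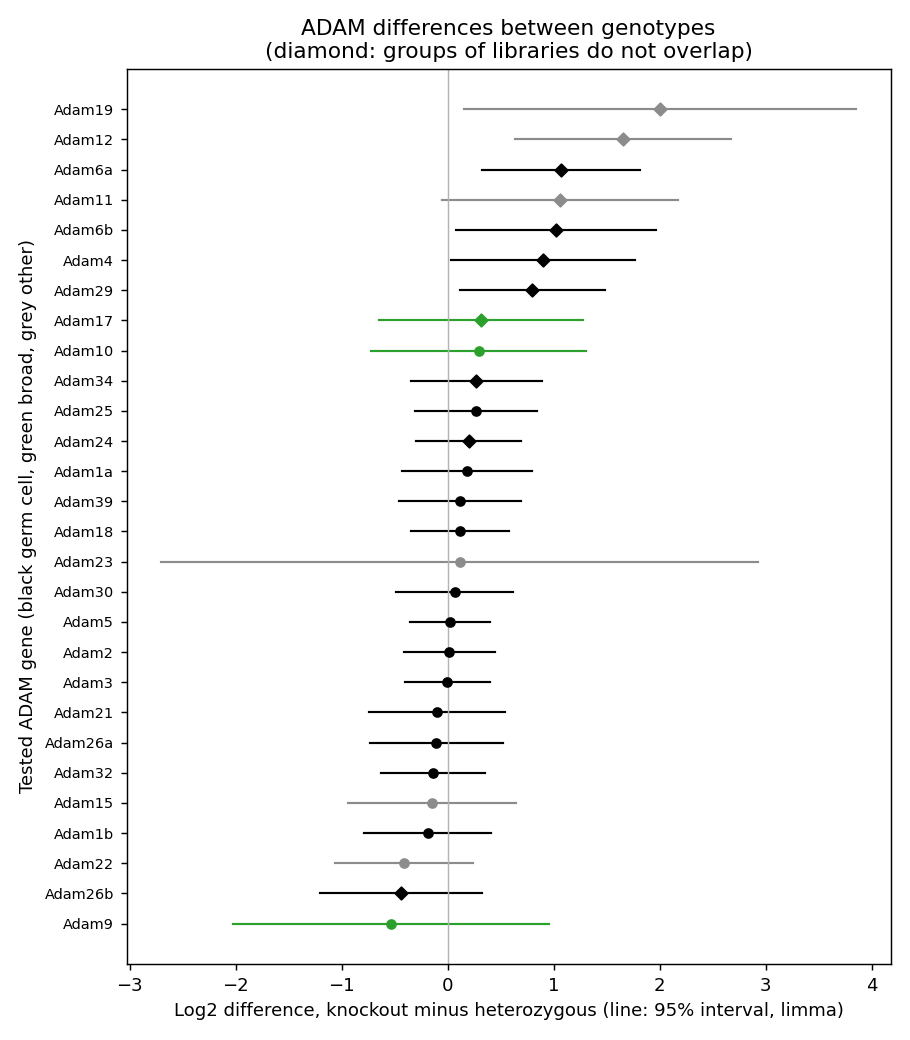
Log2 difference, knockout minus heterozygous, for the 28 tested ADAM genes with 95% intervals from limma, and diamonds where the 2 groups of libraries do not overlap. Adam19 and Adam12 lie furthest to the right at 2.002 and 1.66, Adam6a, Adam6b, Adam4 and Adam29 lie at 0.80 to 1.07, and Adam5, Adam3 and Adam2 lie between -0.00 and 0.02.

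The germ cell members at an unadjusted p under 0.05 were the same 4 that have 1 coding exon but not the whole zinc-binding motif. That grouping was made after the values were seen, and within it Adam4 and Adam29 kept the histidine codons of the motif. Adam6a, in the immunoglobulin heavy chain region of chromosome 12 (113543908 to 113546414), was at 27.2 and 52.7 RPM in the heterozygous and at 75.2 and 83.9 RPM in the knockout libraries. Its neighbour Adam6b (113489545 to 113492018) was at 11.3 and 29.1 RPM against 34.5 and 39.1 RPM. Adam4, on chromosome 12 from 81419443 to 81421946, was at 15.1 and 31.9 RPM against 48.2 and 34.5 RPM. Adam29, on chromosome 8 from 55870912 to 55906948, was at 46.4 and 65.4 RPM against 75.9 and 121 RPM. In each case both knockout libraries were higher, and heterozygous library 1 was the lowest of all. These were also the 4 germ cell members whose highest library was at least 2-fold above the lowest, and the other 15 stayed under 2-fold. Selection by p favours such a spread, so it is not a separate trait of these genes.

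In terms of group means, Adam6a was at 39.9 ± 18.02 RPM against 79.5 ± 6.10 RPM (SD, n = 2), 1.99-fold higher (log2 difference 1.07, SE 0.34, limma adjusted p = 0.528). The folds were 1.83 for Adam6b, 1.76 for Adam4 and 1.76 for Adam29, with log2 differences of 1.02 (SE 0.43), 0.90 (SE 0.39) and 0.80 (SE 0.31). None passed the adjusted threshold (limma adjusted p = 0.596, 0.606 and 0.586). Without heterozygous library 1, the shallowest, the log2 differences were 0.59 for Adam6a, 0.34 for Adam6b, 0.36 for Adam4 and 0.55 for Adam29. Without knockout library 2 the Adam29 difference was 0.46. Without heterozygous library 2 they were 1.55, 1.71, 1.44 and 1.05, and Adam6a, Adam6b and Adam4 passed (limma adjusted p = 0.00512, 0.0101 and 0.0274), as did 3.51% of all tested genes in that fit. The lone library was there assumed to vary like the other group. Adam6a and Adam6b share 94.6% of aligned coding bases and may share reads, so they are not independent of each other. Adam4 lies inside the span of the listed genes Cox16 and Gm20498.

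The genes listed as elongating spermatid markers were lower in both knockout libraries, and markers of the other stages overlapped in part. Tnp1, Tnp2, Prm1 and Prm2 summed to 1964 and 3701 RPM in the heterozygous and 1447 and 1105 RPM in the knockout libraries, with 4 of 4 lower in both knockout libraries. Singly they were at 127 to 1387 RPM in these sorted round spermatids, beside 156 to 849 RPM for the round spermatid markers. Which cells held the 4 transcripts was not tested. Spermatocyte markers summed to 341 and 184 RPM against 219 and 366 RPM, with 1 of 5 above both heterozygous libraries. Round spermatid markers, which mark the labelled cell type, summed to 2433 and 2491 RPM against 2659 and 2613 RPM, with 3 of 6 above both. The shares of all tested genes were 23.5% above and 15.0% below, and none of these markers passed the adjusted threshold in limma (lowest adjusted p = 0.222, Tnp2). Their part in the Adam4, Adam6a, Adam6b and Adam29 values was not tested. In a bulk sample, fewer cells of a type and less RNA per cell cannot be told apart.

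**Figure D5:**
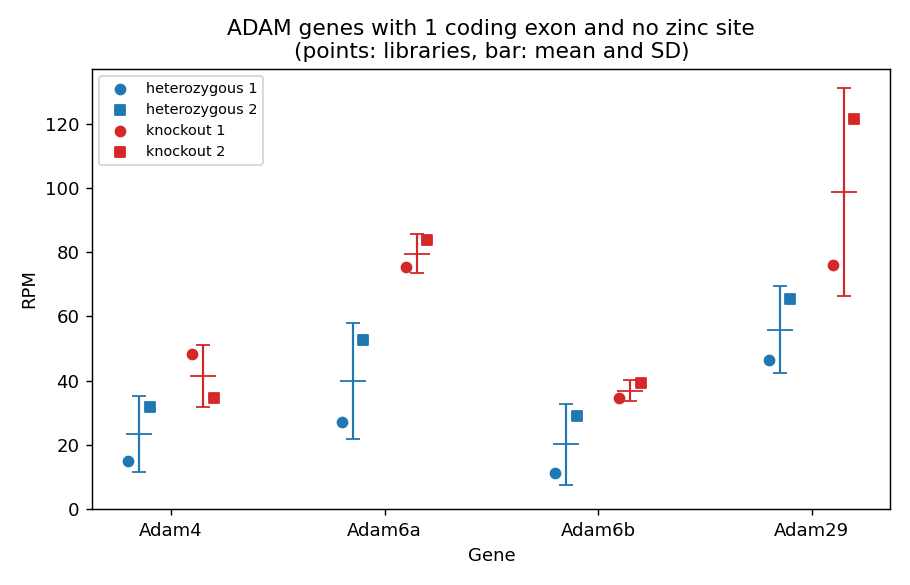
RPM of Adam4, Adam6a, Adam6b and Adam29 in each library (points), with the mean and SD of each group of 2 libraries (bars). Both knockout libraries lie above both heterozygous libraries for each gene, and heterozygous library 1 is the lowest each time.

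The remaining germ cell members whose groups did not overlap had smaller differences. Adam24 was at 145 ± 8.17 RPM against 166 ± 4.34 RPM, Adam34 at 38.0 ± 1.11 RPM against 45.9 ± 2.13 RPM, and Adam26b at 27.5 ± 8.68 RPM against 19.8 ± 0.380 RPM (SD, n = 2). Their limma log2 differences were 0.20, 0.27 and -0.44, each with a 95% interval that held 0. The Adam26b difference rested on heterozygous library 1 at 33.6 RPM, since heterozygous library 2 was at 21.3 RPM beside 19.5 and 20.1 RPM, and it was -0.11 without heterozygous library 1.

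Among the somatic members, Adam12, Adam19 and Adam11 were higher in both knockout libraries. Adam12 (meltrin alpha), a protease gene of muscle and connective tissue cells, was at 5.37 and 3.07 RPM in the heterozygous and at 13.2 and 12.4 RPM in the knockout libraries. That is 4.22 ± 1.62 RPM against 12.8 ± 0.539 RPM (SD, n = 2), a fold of 3.03 (log2 difference 1.66, SE 0.46, limma adjusted p = 0.453). It was the member with the smallest p, and without heterozygous library 1 its difference was 2.06 and passed (limma adjusted p = 0.0176), as did 2.78% of all tested genes, with the same limit on the lone library. Adam19 (meltrin beta) was at 1.04 and 0.561 RPM against 3.40 and 2.75 RPM (log2 difference 2.002, SE 0.84, limma adjusted p = 0.596), on 6, 19, 72 and 31 reads. It met the filter through both knockout libraries and 1 heterozygous library. Exons of Adam19 overlap the antisense genes Gm16033 and Gm16034, from which its reads cannot be told apart. Adam11, a neuronal member without a zinc site, was at 2.94 and 4.05 RPM against 6.19 and 8.34 RPM.

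Markers of several other testis cell types were also higher in the knockout libraries. The 10 macrophage markers summed to 24.2 and 21.7 RPM in the heterozygous and 296 and 92.0 RPM in the knockout libraries, with 9 of 10 above both heterozygous libraries, Adgre1 overlapping and 0 of 10 at 0 reads throughout. The 4 peritubular myoid markers (Acta2, Myh11, Des, Tagln) summed to 1.73 and 1.71 RPM against 6.43 and 5.68 RPM, with 4 of 4 above. Leydig cell markers summed to 6.41 and 3.16 RPM against 35.5 and 15.7 RPM, with 3 of 6 above. Sertoli cell markers summed to 14.2 and 30.2 RPM against 42.0 and 36.7 RPM, with 2 of 6 above and Amh at 0 reads in every library. Most of that sum was Clu, at 10.7 and 25.6 RPM against 37.2 and 29.6 RPM. Wt1 was the other gene above, while Sox9, Cldn11 and Rhox5 overlapped. Spermatogonial markers summed to 56.6 and 49.0 RPM against 84.9 and 72.6 RPM, with 3 of 6 above. Endothelial markers summed to 18.7 and 23.96 RPM against 14.5 and 21.9 RPM, with 2 of 4 above. These counts stand beside the 23.5% of all tested genes above both. They include Acta2, Des and Cdh5, which were too low to be tested. Acta2 had 2 and 3 reads in the heterozygous and 46 and 4 in the knockout libraries. Des had 0 and 3 reads against 16 and 22. Their part in the Adam12, Adam19 and Adam11 values was not tested.

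Sperm ADAM proteins reach the cell surface with the help of dedicated chaperones and processing factors, and 20 such genes were listed. Of the 19 that were tested, 3 lay above and 2 below both heterozygous libraries, 1 was higher at an unadjusted p under 0.05, 0 were lower, and 0 passed the adjusted threshold. Over all tested genes the shares were 23.5% above, 15.0% below, 6.21% higher and 1.87% lower, so none of these counts stands above the background. The median log2 difference was 0.04, beside 0.07 over all tested genes. Calr3, a testis calreticulin needed to make Adam3, was at 63.0 and 87.2 RPM in the heterozygous and at 137 and 135 RPM in the knockout libraries (log2 difference 0.88, SE 0.26, limma adjusted p = 0.470). The Calr3 difference was 0.64 without heterozygous library 1 and 1.11 without heterozygous library 2, where it passed (limma adjusted p = 0.0217), as did 3.51% of all tested genes. Pdilt, a testis protein disulphide isomerase that works with it, was at 274 and 369 RPM against 457 and 412 RPM (log2 difference 0.45, SE 0.22, limma adjusted p = 0.628), and its difference was 0.23 without heterozygous library 1. Both genes were higher in both knockout libraries while Adam3 itself overlapped.

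Other listed genes were abundant. Clgn (calmegin), the chaperone of the fertilin pair, was at 1143 and 817 RPM against 833 and 1024 RPM. As for Adam5, Adam3, Adam32 and Adam2, heterozygous library 1 and knockout library 2 were above the others. Cmtm2a was at 1896 and 1558 RPM against 1739 and 1617 RPM. Lypd4 was at 1093 and 1267 RPM against 1481 and 1203 RPM. Cmtm2b, the neighbour and relative of Cmtm2a, was at 772 and 755 RPM against 724 and 599 RPM, while Calr, the broadly expressed calreticulin, was at 226 and 213 RPM against 212 and 181 RPM, both below the heterozygous libraries. Tex101, a surface protein needed for Adam3, was at 25.8 and 27.8 RPM against 44.4 and 32.8 RPM, above both heterozygous libraries. Prss37, a serine protease relative needed for Adam3, was at 82.6 and 125 RPM against 172 and 110 RPM, with overlapping groups.

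For Adam10 and Adam17, 14 genes of trafficking partners and inhibitors were listed. Of the 11 tested, 3 lay above and 0 below both heterozygous libraries, 2 were higher and 0 lower at an unadjusted p under 0.05, and 0 passed the adjusted threshold. The shares over all tested genes were 23.5% above, 15.0% below, 6.21% higher and 1.87% lower, and the 2 called genes were Timp4 and Tspan15. The median log2 difference was 0.46, beside 0.07 over all tested genes. Timp4, a tissue inhibitor of metalloproteases, was at 0.866 and 0.945 RPM against 9.499 and 5.86 RPM (log2 difference 3.04, SE 0.65, limma adjusted p = 0.300). Timp4 reached the minimum of 1 RPM in 2 libraries only through the knockout libraries, so the filter itself favoured a difference in the fits that used it. Among those, it passed with the replicate number as a block (limma adjusted p = 0.0393, beside 0.415% of all tested genes), without heterozygous library 1 (limma adjusted p = 0.00733) and without heterozygous library 2 (limma adjusted p = 0.00895). Tspan15, a tetraspanin that carries Adam10 to the surface, had 1 read and 0 reads in the heterozygous libraries and 43 and 40 reads (2.03 and 3.55 RPM) in the knockout libraries (limma adjusted p = 0.544). Tspan15 too entered the test only through the knockout libraries. Its limma adjusted p was 0.00552 without heterozygous library 1 and 0.0411 without heterozygous library 2, with the same limit. With no filter on low values, Timp4 and Tspan15 had limma adjusted p-values of 0.0176 and 0.0285, where 0.693% of all genes passed. Tspan17 was at 1.04 and 3.04 RPM against 3.64 and 6.12 RPM, above both, and Tspan14 at 1.39 and 0.0591 RPM against 0.803 and 1.95 RPM, overlapping. The abundant inhibitor gene Timp2 was at 225 and 373 RPM against 319 and 282 RPM. Frmd8, a partner of the iRhom proteins that carry Adam17, was at 36.7 and 26.1 RPM against 38.2 and 32.7 RPM. The groups overlapped for both, and for Tspan5 at 53.3 and 14.6 RPM against 33.1 and 29.0 RPM and Tspan33 at 7.79 and 6.88 RPM against 14.2 and 7.19 RPM.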

How the data were processed

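Per the labels' protocols, sorted cells were amplified with Smart-seq2 (15 PCR cycles) and tagmented with Nextera XT, which keeps neither strand nor molecular identifiers. The mm10 build and the tools HISAT2 2.1.0, Trim Galore 0.6.6 and FastQC 0.11.8 are listed, per the submitters' processing notes. The sources used here do not name a counting tool or annotation. The authors deposited log2 RPM values, scaled to each library's total. The lowest value of a library equals 0.9 of a read, and 99.7% to 100% of the other values were whole reads within 0.01. The totals, from 5774112 to 33853604 reads, span 5.86-fold. RPM printed here counts a gene at the lowest value as 0.

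Genes at 1 RPM or more in 2 libraries were tested on the deposited log2 values with limma 3.58.1 in R 4.3.3 (variance trend, two-sided, Benjamini-Hochberg over all tested genes, threshold 0.05). Exon lengths, coding sequences and overlaps came from GENCODE M21, with exons trimmed to the listed span, and promoters from RefSeq. Coding sequences were aligned with Biopython 1.88. The fit was tested on simulated data. Values in every library are given for members at 5 RPM or more, Adam9, Adam10, Adam17 and up to 4 per direction with the smallest p among those whose groups did not overlap, and for up to 4 genes of each partner list with the smallest p and 4 with the highest level. Alternatives were other scalings, filters, pseudocount, variance model, voom, a replicate block and leaving out each library. The members and lists were chosen with earlier results of these data known.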

Additional observations from a re-analysis of the deposited data

How the results depend on the processing

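With 2 libraries a group, counts of passing genes depended on the fit. The number of all tested genes passing in limma was 0, and it was 0 with median-ratio scaling, quantile normalization, a filter of 5 RPM, no variance trend or voom, 1 with log2(RPM + 1), 180 without a filter and 442, 558, 0 and 5 without heterozygous library 1, heterozygous library 2, knockout library 1 and knockout library 2 (0 to 558). The cause was not tested. With the replicate number as a block 66 genes passed, 0 of them members, and of the 15 genes followed through the alternatives only Timp4 crossed the threshold. The numbers do not pair the samples by label, and deviations of same-numbered libraries correlated at -0.08. Timp4 (adjusted p = 0.0176) and Tspan15 (adjusted p = 0.0285) also passed without a filter. With all 4 libraries, members above both heterozygous libraries ran from 7 (median-ratio scaling) to 11 (quantile normalization). Members below both heterozygous libraries were 2 with median-ratio scaling. Members higher at an unadjusted limma p under 0.05 were 4 with median-ratio scaling, quantile normalization or voom. They were 3 without a variance trend. Processing partners below both were 1 with quantile normalization, and partners of Adam10 and Adam17 above both were 1 with the 5 RPM filter.

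Leaving out 1 library compares 1 library with 2, so fewer groups overlap. The ranges were then 10 to 18 members above and 3 to 8 below, 2 to 7 members higher and 0 to 3 lower at an unadjusted p under 0.05, 4 to 10 processing partners above and 3 to 6 below, and 4 to 10 partners of Adam10 and Adam17 above and 0 to 2 below. The median over germ cell members kept within 0.05 to 0.16 over all alternatives, and that over Adam9, Adam10 and Adam17 ran from 0.012 to 0.30. The Adam9 difference turned to 0.028 with voom and ran from -1.26 to 0.20 when 1 library was left out, the upper end without heterozygous library 1. All 19 germ cell members stayed above Adam9, Adam10 and Adam17 per kilobase with the longest annotated transcript as length and within each library. Depth limits the low genes most, since 1 read was worth 0.173 RPM in heterozygous library 1.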
